A study of Mus musculus with 7 samples.

Results

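The C2cd4 family comprises the mouse genes C2cd4a, C2cd4b, C2cd4c and C2cd4d, which encode small proteins with a C2 domain. All probe sets whose annotation names 1 of these 4 genes were taken, out of 19938 genes that are named singly on the array. The annotation gave 1 probe set each for C2cd4a, C2cd4b and C2cd4c. No value of C2cd4d was analysed here, because no probe set was matched to it by symbol, older name, Entrez identifier or accession. The 3 measured genes all lay above the low-signal filter. The family was chosen by the measured intensities of C2cd4b in knockout against control bone, so the values of its members in that comparison are a description and carry no test.

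The RNA came from long bones of males, 39 to 41 weeks old, enriched for osteocytes, the cells buried in mineralized bone. The 3 knockout mice are labelled as DMP1 cre Mbtps1 knockout. Mbtps1 encodes site-1 protease, a Golgi enzyme that releases membrane-bound transcription factors such as SREBP and ATF6. The Dmp1 promoter drives the recombinase mainly in osteocytes and late osteoblasts, so other cells in the bone keep the gene. The 4 control mice are labelled as wildtype and the series title calls them littermates. Whether they carried the recombinase or a floxed allele is not given in the sources used here. In both groups the marrow was taken out first, and the bone was then digested in rounds with collagenase and EDTA.

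A C2 domain is a protein fold that in many proteins, such as synaptotagmins and protein kinase C, binds phospholipid membranes. C2CD4A and C2CD4B are also known as nuclear localized factors and were described as genes that inflammatory cytokines induce in endothelial cells. The pair lies beside Vps13c, in a region that genetic studies in people link to blood glucose and adult-onset diabetes, and it has mostly been studied in pancreatic beta cells. C2cd4c and C2cd4d are the other family members, and their roles are less well described.

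All 3 measured genes read higher on every knockout array than on any control array, as did 5.22% of all genes above the low-signal filter. The members were chosen with this contrast in view, so nothing is read from that. The sequences upstream of these 3 genes are shown as a description. They are the 250 bases before the RefSeq start (GRCm38.p6), 5′ to 3′ on the strand of the gene, at chr9:67759187-67759436 (+) for C2cd4b, chr9:67832331-67832580 (-) for C2cd4a and chr10:79614026-79614275 (-) for C2cd4c. For C2cd4c the table holds 2 starts and the one farther upstream was used. Capitals mark matches, on either strand, to 6 motifs, and no match overlapped another. The letters of the TATA box were TATAAA and those of the CCAAT box as in its name. An E-box was searched as CACGTG, and the core shared by sites of ATF6 and CREB3 factors as TGACGTG. An AP-1 site was searched as TGANTCA, and a site of FOXO factors as TGTTTAC.
C2cd4b: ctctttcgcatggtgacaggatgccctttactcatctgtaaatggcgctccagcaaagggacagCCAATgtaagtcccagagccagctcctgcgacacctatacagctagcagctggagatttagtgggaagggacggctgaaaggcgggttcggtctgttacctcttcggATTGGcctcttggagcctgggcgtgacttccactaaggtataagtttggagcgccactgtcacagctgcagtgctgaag
C2cd4a: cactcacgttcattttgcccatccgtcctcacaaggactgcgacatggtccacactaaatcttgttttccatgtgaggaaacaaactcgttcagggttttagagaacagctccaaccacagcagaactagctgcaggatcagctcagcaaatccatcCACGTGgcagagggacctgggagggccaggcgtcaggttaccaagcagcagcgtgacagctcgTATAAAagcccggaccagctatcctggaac
C2cd4c: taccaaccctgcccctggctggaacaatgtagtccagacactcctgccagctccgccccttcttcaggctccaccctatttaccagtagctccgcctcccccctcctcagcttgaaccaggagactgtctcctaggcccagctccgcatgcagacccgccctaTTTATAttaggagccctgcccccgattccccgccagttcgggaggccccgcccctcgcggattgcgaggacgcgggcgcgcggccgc

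The C2cd4b window held CCAAT boxes that begin 186 and 79 bases before the start, the latter on the opposite strand. The C2cd4a window held a TATA box that begins 30 bases before the start and an E-box at 93. In the C2cd4c window the only match was a TATA box on the opposite strand, 87 bases before the start. Of 32851 RefSeq windows of this length, 33.8% held a CCAAT box, 12.4% a TATA box and 6.02% an E-box. The ATF6 and CREB3 core, the AP-1 site and the FOXO site, present in 1.65%, 6.75% and 3.17% of windows, were in none of the 3. The windows differ in base composition, with 54.4% G and C in C2cd4b, 52.8% in C2cd4a and 65.2% in C2cd4c. No motif searched was shared by all 3 genes. Such matches describe the letters and do not show a site in use.

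The arrays had median intensities from 87.3 to 107.7, and at the first quartile control 3 (40.5) and control 4 (61.0) lay at the ends. Results on the C2cd4 genes are therefore also given without these arrays.

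C2cd4b had the largest signal difference of the family. Its probe set read 63.4, 60.7, 49.5 and 70.4 in controls 1 to 4 and 211, 130 and 161 in knockouts 1 to 3 (deposited intensity, linear scale). The lowest knockout lay 59.4 intensity units, or 1.84-fold, above the highest control. Means were 61.0 ± 8.69 (SD, n = 4) in controls and 167 ± 40.9 (SD, n = 3) in knockouts, a 2.74-fold ratio of the means. The control mean lies under the low-signal cutoff of 69.7 used for the comparison of all genes, so the size of this ratio is uncertain. Knockout 1 was highest and knockout 2 lowest of the knockouts, and the spread within the knockouts was wider than within the controls on the log2 scale too (SD 0.32 against 0.17). In RNA of whole bone pieces a different number of cells of a type and a different amount of RNA per cell cannot be told apart, and neither can fewer cells and less RNA per cell for genes that were lower.

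C2cd4a, which lies next to C2cd4b on chromosome 9 in the opposite orientation, differed by a smaller amount. It read 125, 124, 128 and 134 in controls 1 to 4 and 157, 150 and 157 in knockouts 1 to 3. Both groups were tight, with means of 127 ± 4.42 and 155 ± 4.02 (SD), and the gap between them was 16.4 units. C2cd4c, on chromosome 10, read 114, 89.6, 105 and 117 in controls and 146, 125 and 141 in knockouts. Its means were 106 ± 12.4 and 137 ± 11.1 (SD), and the nearest arrays of the groups, control 4 and knockout 2, were only 7.27 units apart.

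In all 3 genes control 4 was the highest control and the knockouts ran in the order 1, 3, 2 from high to low. In C2cd4a, however, knockouts 1 and 3 were 157.1 and 156.6. The median of the probe sets naming 1 gene had this order too, at 113.8 in control 4 and 115.5, 114.8 and 112.1 in knockouts 1, 3 and 2. Relative to that median C2cd4a was highest in control 3 (1.22) and knockout 3 (1.364, against 1.360 in knockout 1). C2cd4b and C2cd4c kept the order relative to that median, with control 4 the highest control at 0.62 and 1.03. Their knockouts 1, 3 and 2 were at 1.82, 1.41 and 1.16 for C2cd4b and at 1.26, 1.22 and 1.11 for C2cd4c. The order alone is thus not particular to the family, and its source was not tested. Control 2 was the lowest control in C2cd4a and C2cd4c, whereas control 3 was the lowest in C2cd4b. Probe sequences were not used here, so whether a probe set of 1 family member also reads another was not tested.

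**Figure D1:**
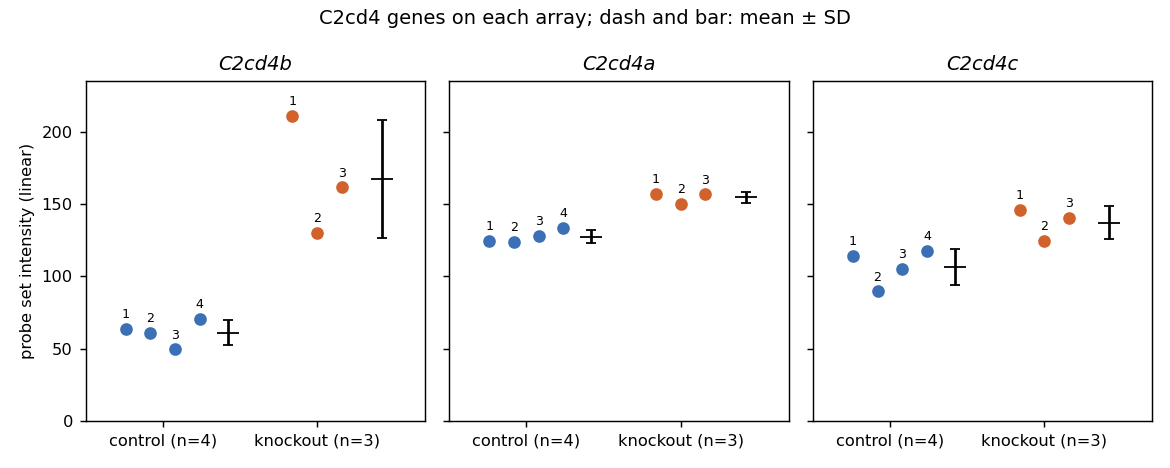
Probe set intensity (linear, from 0) of C2cd4b, C2cd4a and C2cd4c on each array, with numbered points for the 4 controls (blue) and 3 knockouts (orange) and the mean ± SD beside them. C2cd4b has the widest gap, from 70.4 in control 4 to 130 in knockout 2.

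On the log2(intensity + 16) scale the difference, knockout minus control, was 1.24 (limma SE 0.16) for C2cd4b, 0.33 (SE 0.12) for C2cd4c and 0.25 (SE 0.11) for C2cd4a. Without control 3 these differences were 1.16, 0.32 and 0.25, and without control 4 they were 1.29, 0.37 and 0.27, in the same order. An offset in the logarithm shrinks differences of low signals, and with an offset of 64 the C2cd4b difference was 0.88, against 1.42 with an offset of 1. C2cd4b had the highest difference of all 13938 genes tested, and the next highest was 0.69. This place restates how the family was chosen, and the gene passed the low-signal filter (6.42 on the log2 scale) through the knockouts, at 7.49, with a control mean of 6.26. It was the only gene with a log2 difference of at least 1 in favour of the knockouts (0.00717% of genes), while 24 genes (0.172%) had one of at least 1 in favour of the controls. By the same order C2cd4c was at place 553 and C2cd4a at place 1484. C2cd4b kept the first place under each of the alternatives run in which it passed the low-signal filter.

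All 3 measured family members had groups that did not overlap with the knockouts higher, also with median centring and with quantile normalization, the settings run that could change the order of arrays. Across all genes tested 728, or 5.22%, did so with all arrays, and 2.76% had separate groups with the knockouts lower. This split depends on the scaling, with 443 higher and 561 lower after each array was centred on its median. The members were chosen with this contrast in view, so nothing is read from their count. Fewer arrays make separate groups easier to reach, so the counts with an array left out are not on the same footing. They were 980, 859, 1956 and 1649 without controls 1, 2, 3 and 4, and 877, 1441 and 1188 without knockouts 1, 2 and 3. The background share also depends on signal. With the tested genes in 4 equal bins by mean signal, the share was 6.92% in the lowest bin, where C2cd4b lies, 7.49% in the next, where C2cd4a and C2cd4c lie, 4.59% in the one after and 1.89% in the highest. The median log2 difference was 0.08 in each of the 2 lower bins. In the lowest bin 90% of genes lay below 0.28, and in the next below 0.26. C2cd4c was thus above the latter bound and C2cd4a just under it.

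**Figure D2:**
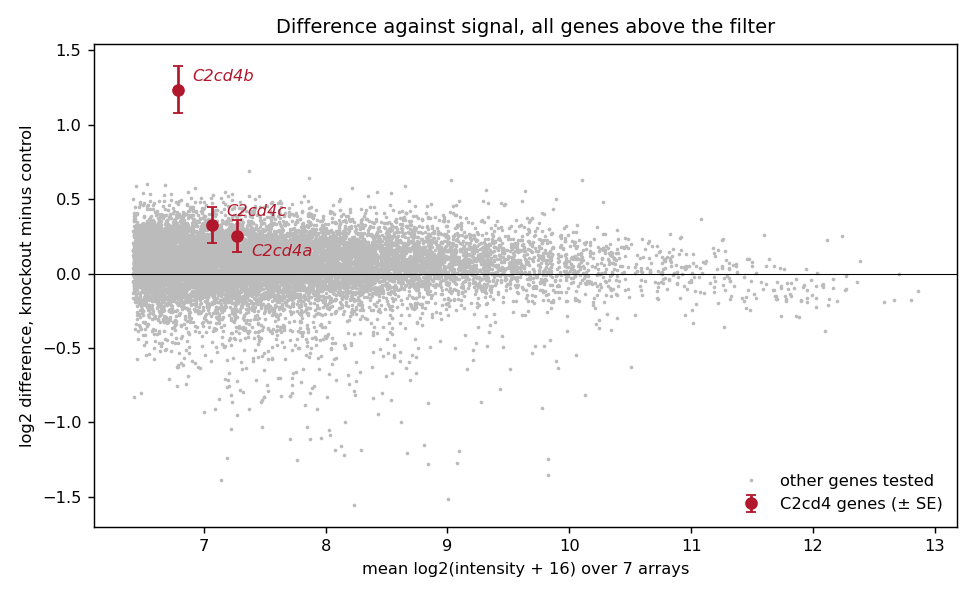
Log2 difference (knockout minus control) against mean log2(intensity + 16) over 7 arrays for 13938 genes tested (grey) and the 3 C2cd4 genes (red, ± SE). C2cd4b at 1.24 is separate from the grey points, while C2cd4c at 0.33 and C2cd4a at 0.25 lie in their upper part.

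The place of a probe set in the signal order of its own array does not depend on a scaling of that array. Among 21789 probe sets that name 1 gene, C2cd4b had percentiles of 24.4, 28.1, 26.2 and 24.7 in controls 1 to 4. In knockouts 1 to 3 its percentiles were 72.2, 55.9 and 64.4. Its mean place moved from 25.8 ± 1.69 to 64.2 ± 8.17 (SD), a shift of 38.3 points. The next largest upward shift of any such probe set was 18.7 points, and 95% of probe sets shifted by less than 7.03 points. C2cd4b was among 30 probe sets that lay under the 50th percentile on every control and above it on every knockout. These places come from the intensities by which the family was chosen, so they restate that choice and carry no test.

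By this measure control 4 was not the highest control for C2cd4b, although its intensity there was the highest. Against the median of these probe sets on the same array, C2cd4b read 0.62 times as much in control 4 and 0.47 times in control 3, against 1.82, 1.16 and 1.41 times in knockouts 1 to 3. C2cd4a moved from a mean place of 56.4 ± 1.62 to 62.2 ± 1.01 and C2cd4c from 49.1 ± 3.18 to 57.5 ± 2.90 (SD), and their groups did not overlap in place either. These places describe probe sets and do not rank amounts of RNA between genes.

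**Figure D3:**
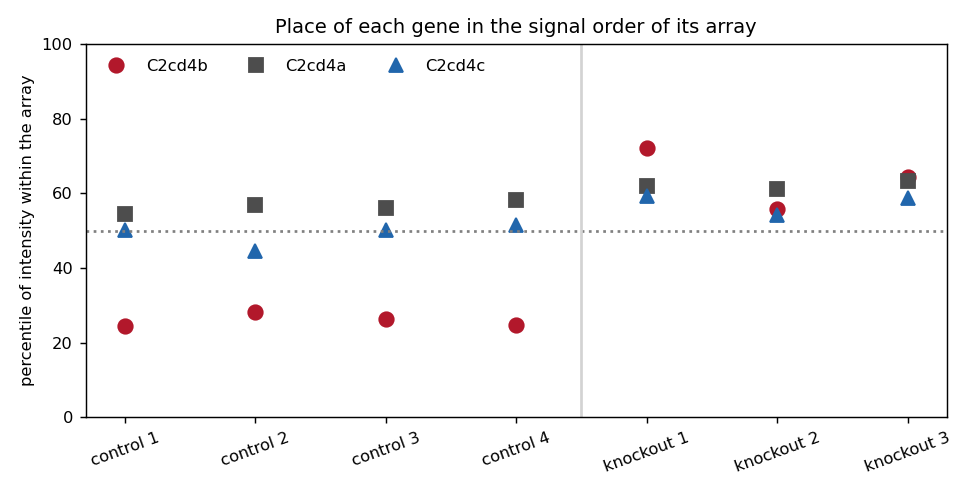
Percentile of the C2cd4b, C2cd4a and C2cd4c intensity among probe sets naming 1 gene, on each of the 7 arrays, with the dotted line at the 50th percentile. C2cd4b lies between 24.4 and 28.1 on the controls and between 55.9 and 72.2 on the knockouts.

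The targeted gene Mbtps1 read 162, 149, 131 and 152 in controls 1 to 4 and 115, 107 and 154 in knockouts 1 to 3. Its log2 difference was -0.23 (SE 0.14, limma adjusted p = 0.807), and knockout 3 lay within the control range. The exons this probe set reads were not analysed, so it does not check the genotype. Replicates are separate mice by the series design text, and 7 arrays limit the precision of every value.

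Genes whose log2 values over the 7 arrays ran most like those of C2cd4b were Tnk2, Lrrc56, Celsr3 and Fam131b, by Pearson correlation among 13937 genes. The correlation is a description, since the groups lie apart and 170 genes reached 0.9. Tnk2, a non-receptor tyrosine kinase, had a correlation of 0.996 and read 124, 126, 118 and 128 in controls and 176, 149 and 158 in knockouts. The order of the knockouts was that of C2cd4b, but the log2 difference of Tnk2 was 0.34. Lrrc56 (0.990), Celsr3 (0.985), an adhesion receptor of the cadherin superfamily, and Fam131b (0.985) had differences of 0.35, 0.28 and 0.43. The control means of Celsr3 (64.7) and Fam131b (65.4) lay under the low-signal cutoff of 69.7, and that of Lrrc56 (70.6) just above it. Celsr3 and Fam131b thus passed the filter through the knockouts, as C2cd4b did, and the sizes of their differences are uncertain. With each group centred on its own mean, the correlation with C2cd4b was 0.98 for Tnk2 and between 0.88 and 0.90 for the other 3, over the same arrays on which these genes were picked.

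The lowest correlations were those of Tmem263 (-0.957), the ribosomal protein gene Rps14 (-0.957), Zfand5 (-0.956) and Rnd3 (-0.956). Rps14 read 4012, 4154, 4424 and 4120 in controls and 3406, 3835 and 3715 in knockouts, so knockout 1, the highest for C2cd4b, was the lowest here. The differences of these 4 genes ran from -0.47 (Rnd3) to -0.15 (Zfand5). Within the family C2cd4a had a correlation of 0.962 with C2cd4b, at place 23, and C2cd4c one of 0.880, at place 246. With each group centred on its own mean these were 0.57 and 0.58.

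**Figure D4:**
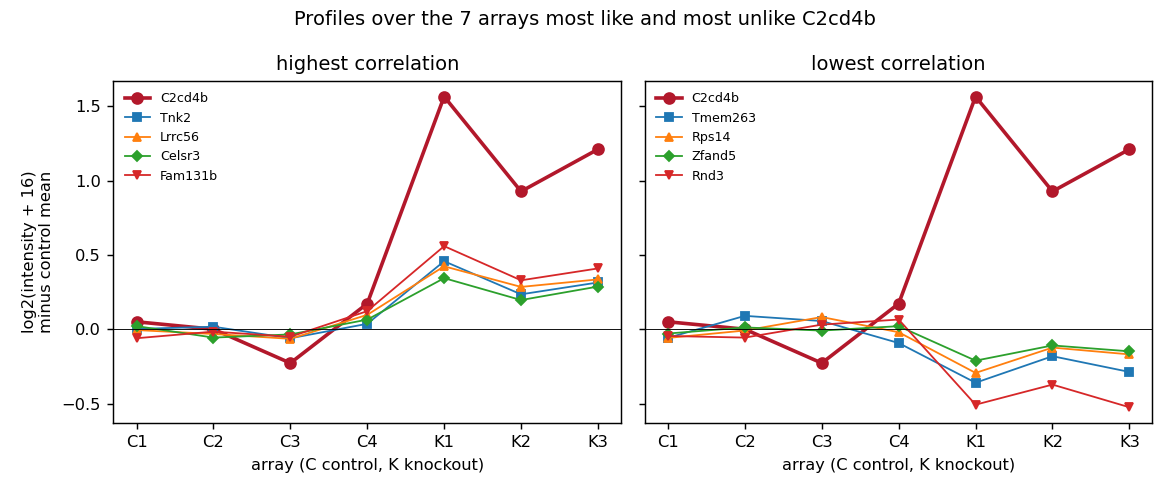
Log2(intensity + 16) minus the control mean on controls 1 to 4 (C1 to C4) and knockouts 1 to 3 (K1 to K3) for C2cd4b and the 4 genes with the highest (left) and lowest (right) correlation with it. Lines join the values of a gene and carry no order of arrays; the left panel shows the same order of knockouts at a smaller size, 0.28 to 0.43 against 1.24.

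Genes beside the family on the chromosomes were compared next. Around C2cd4b and C2cd4a, Vps13c, which encodes a lipid transfer protein, read 193 ± 25.7 in controls and 208 ± 16.7 in knockouts (log2 difference 0.11, SE 0.13). On the other side Tln2, which encodes the adhesion protein talin-2, read 77.7 ± 6.13 and 75.2 ± 6.72 (-0.04, SE 0.13). Neither difference exceeded its error. The nuclear receptor gene Rora read 191, 173, 194 and 281 in controls 1 to 4 and 154, 172 and 169 in knockouts 1 to 3 (-0.30, SE 0.16). Its groups were separate by 1.42 units, and control 4 stood above the rest. The remaining neighbours of C2cd4b, Rab8b, Rps27l, Lactb, Tpm1, Ice2 and Anxa2, had differences between -0.23 (Anxa2) and 0.11 (Rab8b), with overlapping groups.

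Over all 4 family members there were 30 neighbours, the 5 nearest protein-coding genes on each side, of which 26 had a probe set and 17 were tested. No neighbour passed a Benjamini-Hochberg adjusted p of 0.05 over all genes in limma (smallest 0.605), and 3 were higher at an unadjusted p under 0.05. These 3 were Foxb1 (log2 difference 0.48), 5 places from C2cd4a, Plpp2 (0.38), 3 places from C2cd4c, and Lingo4 (0.44), 2 places from C2cd4d. At that unadjusted threshold 3.77% of all genes were higher and 2.71% lower, 904 genes or 6.49% in all, and no gene passed the adjusted one. The 526 higher and 378 lower genes became 265 and 510 with median centring and 532 and 577 with quantile normalization. This count was 1826 when control 4 was left out, 1412 when control 3 was, 436 for knockout 3 and 323 for knockout 1. The median difference of the neighbours was 0.11 against 0.07 over all genes.

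Other genes with C2 domains were also compared. Of 62 listed, 45 were tested, and 36 (80%) had a difference above 0 against 67.7% of all genes tested. Their median was 0.12, or 0.06 with quantile normalization, where the median of all genes was 0.04. None passed the adjusted threshold (smallest limma adjusted p 0.605). At an unadjusted p under 0.05, 1 was higher and 2 were lower, against 3.77% and 2.71% of all genes. Sytl2, a Rab27-binding synaptotagmin-like gene, read 127, 102, 103 and 200 in controls and 65.2, 76.5 and 69.9 in knockouts (-0.74, SE 0.19). Syt12 read 95.6, 74.6, 88.8 and 178 in controls and 62.7, 71.0 and 71.8 in knockouts (-0.51, SE 0.21), and control 4 was far above the rest in both genes. Syt15 had the highest difference of the list, 0.36 (SE 0.16), and Sytl4, another Rab27-binding gene, one of 0.25 (SE 0.12). Groups did not overlap in Syt15 and Sytl4, nor, with the knockouts lower, in Sytl2 and Syt12. Of the 45 genes 3 had separate groups with the knockouts higher and 3 with the knockouts lower, against 5.22% and 2.76% of all genes.

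Since C2cd4a and C2cd4b are known as cytokine-induced genes, cytokines, their receptors and NF-kB pathway genes were listed. Of 28 genes 22 were tested, with a median difference of 0.03, or -0.03 with each array centred on its median, and 12 (54.5%) lay above 0 against 67.7% of all genes. None passed the adjusted threshold (smallest limma adjusted p 0.651). At an unadjusted p under 0.05, 2 were higher and none lower, against 3.77% and 2.71% of all genes. Cxcl1, a neutrophil chemokine, read 186, 168, 176 and 198 in controls and 276, 205 and 265 in knockouts (0.41, SE 0.14). As in C2cd4b, knockout 1 was highest and knockout 2 lowest. Il1rn, the interleukin-1 receptor antagonist, had a difference of 0.43 (SE 0.18) with overlapping groups and was highest in knockout 2. Ccl2, a monocyte chemokine (0.30, SE 0.15), and the adhesion molecule gene Icam1 (0.20, SE 0.11) had smaller differences. The lowest of the list was Ptgs2, which encodes an enzyme of prostaglandin synthesis, at -0.43, a gene named after its values were seen.

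Pancreatic beta cell markers were listed because the family has mostly been studied there. Of 19 genes 9 were tested, with a median of 0.14, and all 9 lay above 0, as did 67.7% of all genes tested. None passed the adjusted threshold (smallest limma adjusted p 0.755), and 2 were higher at an unadjusted p under 0.05, against 3.77% of all genes. Ins2, an insulin gene, read 87.7, 81.3, 69.6 and 125 in controls and 115, 117 and 128 in knockouts (0.37, SE 0.16), with overlapping groups. Chga, a secretory granule gene, read 69.6, 70.6, 54.9 and 88.3 in controls and 93.4, 90.6 and 93.1 in knockouts (0.33, SE 0.14), a gap of 2.31 units. Abcc8 (0.15) and Slc2a2 (0.14) had overlapping groups. The mean log2 signal of this list was 6.55 to 7.08 on the controls and 6.92 to 7.01 on the knockouts, so the groups overlapped.

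**Figure D5:**
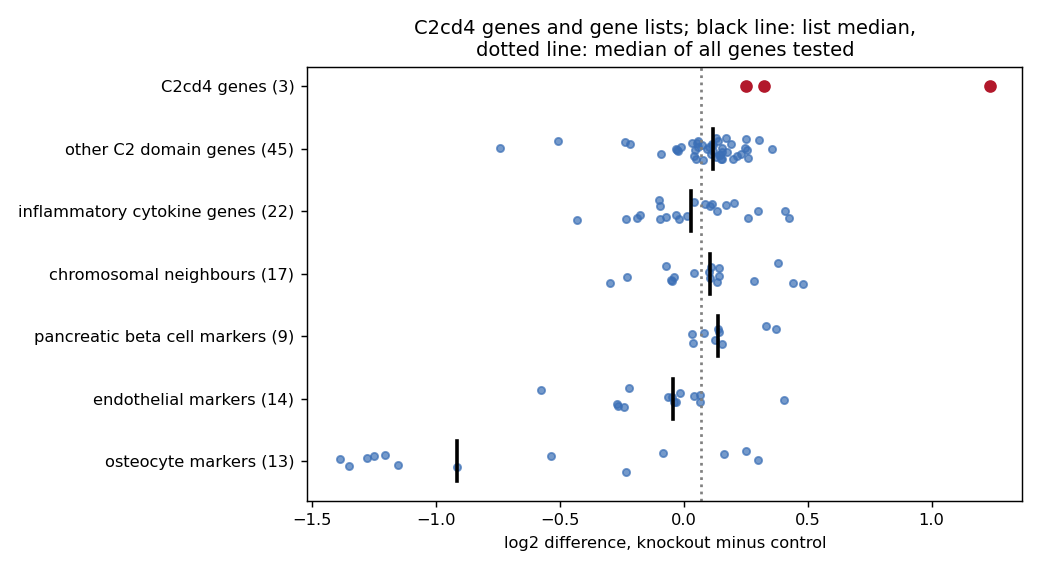
Log2 differences (knockout minus control) of the 3 C2cd4 genes (red) and of the tested members of 6 gene lists (blue, numbers in brackets), with list medians (black) and the median of all genes, 0.07 (dotted). C2cd4b at 1.24 has the highest difference of all genes tested, so it lies beyond every list. The median of the osteocyte markers is at -0.91.

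Marker lists of cell types were compared next, in log2 means per array. They do not tell the number of cells of a type from the RNA per cell. All 13 osteocyte markers were tested, and none passed the adjusted threshold. At an unadjusted p under 0.05, 8 were lower and 1 was higher, against 2.71% and 3.77% of all genes. Their mean was 8.48 to 9.42 on controls and 7.99 to 8.27 on knockouts, so it was lower on each array where C2cd4b was higher. The part of this in the C2cd4b difference was not tested. Endothelial markers, 14 of 14 tested, had a mean of 7.53 to 7.82 on controls and 7.55 to 7.66 on knockouts and a median difference of -0.04. Of these, 4 (28.6%) lay above 0, against 67.7% of all genes tested, and none passed the adjusted threshold. At an unadjusted p under 0.05 in limma, 2 were lower and none higher, against 2.71% and 3.77% of all genes. Emcn, an endothelial sialomucin gene, had the lowest difference of the list, -0.58 (SE 0.16), and Vwf, the gene of von Willebrand factor, named after its values were seen, the highest, 0.41. The 9 B cell markers tested were all above 0 (67.7% of all genes were) with a median of 0.40 and a mean of 7.70 to 8.78 on controls and 8.63 to 8.68 on knockouts. The 7.70 was that of control 4, and the other controls lay at 8.26 to 8.78, around the knockouts.

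Medians of the other lists were -0.31 for osteoblast, -0.0095 for neutrophil, 0.0051 for macrophage, 0.22 for erythroid, 0.21 for megakaryocyte, -0.25 for adipocyte, -0.0075 for skeletal muscle and -0.02 for nerve and Schwann markers. The erythroid mean was 9.05 on control 4, against 9.88 to 10.14 on the other controls and 9.91 to 9.98 on knockouts. For the megakaryocyte list control 4 was at 9.74, the other controls at 10.27 to 10.61 and the knockouts at 10.29 to 10.64. The highest difference among the genes with the smallest p in each marker list was that of the B cell marker Vpreb3 (0.63), followed by the megakaryocyte marker Itga2b (0.59) and the Schwann cell marker Sox10 (0.49). Sox10 had groups that did not overlap, at 63.5 to 76.4 in controls and 103 to 106 in knockouts, but the myelin gene Pmp22 of the same list, named after its values were seen, had a difference of -0.39. All of these lay below C2cd4b, which was fixed in advance because C2cd4b had the highest difference of all genes tested.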

How the data were processed

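The authors deposited an intensity (linear scale) for each of 35556 probe sets on every array. The submitters' processing notes name PLIER and Affymetrix Expression Console 1.4 but no settings. How arrays were normalized, and on which genome build, is not given in the sources used here. Per the labels' protocols, 30 ng of total RNA was labelled per sample. Gene names came from the platform annotation. Probe sets naming 1 gene (21789) were used, 1621 named several and 12146 none. Each gene kept its probe set with the highest mean, and those under the 30th percentile of mean log2(intensity + 16), intensity 69.7, were left out.

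Groups were compared with limma 3.58.1 in R 4.3.3, with a trend in the variance, two-sided, without covariates, with Benjamini-Hochberg adjustment over 13938 genes at 0.05. The fit was tested on simulated data. Members and lists were chosen with earlier results of these data known. Named genes were the members, Mbtps1, the 4 most and 4 least correlated genes, neighbours of C2cd4b, and the smallest p in each list, 4 for C2 domain, cytokine and beta cell genes and 1 otherwise; the 3 neighbours at an unadjusted p under 0.05 were named after their values were seen. Neighbours, and the promoters, came from RefSeq of GRCm38.p6; promoters were found for all 4 members. Alternatives were other offsets, filters, normalizations, variance models, array weights, a replicate block and arrays left out. Figures were drawn with matplotlib 3.10.9.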

Additional observations from a re-analysis of the deposited data

Results flagged for a closer look

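Rps27l, a ribosomal protein-like gene 4 places from C2cd4b on the chromosome, had 1 control far from the others. Control 4 was at 9.08 and the other controls at 9.48 to 9.53 on the log2(intensity + 16) scale, a gap of 0.907 of the range of the 4 controls, which is beyond Dixon's 95% critical value. This was 1 of 52 genes examined in this way, and chance alone gives such a gap in about 1 of 20 groups. No C2cd4 gene had such a control.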

How the results depend on the processing

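No alternative reversed the difference of a measured C2cd4 gene. C2cd4b ranged from 1.07 (without knockout 1) to 1.39 (without knockout 2) with single arrays left out, and was 0.88 with an offset of 64. C2cd4a ranged from 0.24 to 0.27 with single arrays left out and was 0.19 with an offset of 64 and 0.19 with median centring. C2cd4c ranged from 0.24 to 0.39 over all alternatives. The count of genes at an unadjusted p under 0.05 was 1867 with array weights, 1503 without controls 3 and 4, and 323 to 1826 with single arrays left out. The count of genes higher in knockout with groups not overlapping was 443 with median centring and 430 with a filter at the 50th percentile (fewer genes tested). With fewer arrays, which make separate groups easier to reach, it was 3028 without controls 3 and 4 and 859 to 1956 with single arrays left out. The cause of the other changes was not tested. Genes past the adjusted limma threshold numbered 0 in the main setting (904 at an unadjusted p under 0.05). With all arrays kept they numbered 1 with median centring and 5 with array weights, and they reached 62 over the alternatives. The medians of the C2 domain, cytokine and neighbour lists moved by less than the spread between arrays, but that of cytokine genes ranged across 0, from -0.05 to 0.09.

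With a replicate block 1655 genes had an unadjusted p under 0.05, 62 passed the adjusted threshold and the C2cd4b difference was 1.29. The labels do not say that equal numbers pair arrays. Deviations from the group means correlated at 0.07, 0.15 and -0.53 for numbers 1, 2 and 3, and not every array correlated best with its own number. With so few arrays these correlations show no pairing by number but cannot settle whether there was one. Low signal limits C2cd4b, whose control mean (61.0) lies under the filter intensity of 69.7.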
